A study of Mus musculus with 6 samples.

Results

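The genes described here are 37 mouse genes of glycolysis and of the response to low oxygen, followed while human NAC1 was put back into induced pluripotent stem (iPS) cells that lack the mouse gene Nac1. The genes were listed by name. A probe counted as a member if its symbol was a listed gene or an older or newer synonym of it, and if, on some day, both arrays detected it at a p-value under 0.05. Of the 45281 probes on the array, 64 carried such a name, and 48 of them were detected, among 17471 detected probes in all. They stand for 31 of the 37 genes, among 12030 genes tested. Slc16a1, which encodes a lactate transporter, and Bnip3 and Higd1a, which encode mitochondrial proteins, were detected on 0 arrays, and Adm, which encodes the peptide adrenomedullin, on 1. Hk2 and Ldhb were not analysed here. Of the 31 genes, 29 were detected on all 6 arrays, and Hk1 and Egln1 on 5.

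The iPS cells came from 2 lines made in the authors' laboratory, named Nac1 null iPS clone #5 and clone #7, here clone 5 and clone 7. Both received human NAC1 (hNAC1), and total RNA was taken on days 0, 2 and 5 of this rescue, with 1 array per clone and day. NAC1 is a nuclear protein with a BTB domain that is known to take part in the network of pluripotency factors. All 6 arrays lay on 1 Illumina bead chip. Every sample therefore lacks mouse Nac1, each line is a single clone, and the arrays hold no line with intact Nac1 and no null culture carried to day 2 or 5 without the human gene. The labels give neither the vector that carried hNAC1 nor the medium or the oxygen level of the cultures. The 2 arrays of a day are the 2 clones, so the p-values measure how far the clones differ in their change, with 2 residual degrees of freedom per gene. All day comparisons share arrays, and changes on day 2 and on day 5 were not set against each other as if they were independent.

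Glycolysis is the chain of enzymes in the cytoplasm that turns glucose into pyruvate, and pluripotent stem cells are known to use it heavily even when oxygen is present. Pyruvate either becomes lactate, which leaves the cell, or enters the mitochondria. In well oxygenated cells the prolyl hydroxylases of the Egln family mark the alpha subunit of hypoxia-inducible factor (HIF) for destruction. When oxygen is low the subunit accumulates, pairs with Arnt, binds a short DNA motif and raises the transcription of most glycolytic enzymes and of genes such as Ndrg1, Ankrd37 and Vegfa. This control acts mostly on the HIF protein, whereas the arrays measured RNA alone.

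The core of the HIF motif was looked up in the promoters of the listed genes, as a description of their DNA. The letters searched were ACGTG and GCGTG on both strands, in windows from 250 bases before to 50 after each gene start of the RefSeq promoter table (GRCm38.p6). Of the 31 genes, 28 had a window in the table, and Ndrg1, Bnip3l and Slc2a3 had none. The motif stood in 32 of their 41 windows, or 78.0%, against 43.8% of all 32851 windows. Counted by gene it was present for 25 of 28, or 89.3%, against 46.7% of all genes in the table. The windows of these genes held a median of 20 CpG pairs, against 7 over all windows, and the motif itself contains a CpG. Among windows with at least 20 such pairs the shares were 90.5% for the genes described here (19 of 21 windows) and 73.6% for all. ACGTG is also part of the E-box CACGTG, which other factors bind, and 3 of the 41 windows held that longer word. A match describes letters in a window and does not show that HIF binds there. The list was drawn up to hold known hypoxia response genes, so these shares describe the list and are no result of the arrays.

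Printed below are the windows of the 6 genes that had one and that read at least 2-fold higher on day 5 than on day 0 in clone 7, a choice made after their values were seen, and that of Ldha, the lactate dehydrogenase gene, for its many matches. Capitals mark the motif on either strand, and a longer run of capitals, such as CACGTG or CACGCGTG, marks matches that overlap. All run 5′ to 3′ on the strand of the gene and come from RefSeq, GRCm38.p6. Aldoc and Ldha had 2 windows each, and the upstream window of each is shown.
Ankrd37 (chr8:45999801-46000100, minus strand): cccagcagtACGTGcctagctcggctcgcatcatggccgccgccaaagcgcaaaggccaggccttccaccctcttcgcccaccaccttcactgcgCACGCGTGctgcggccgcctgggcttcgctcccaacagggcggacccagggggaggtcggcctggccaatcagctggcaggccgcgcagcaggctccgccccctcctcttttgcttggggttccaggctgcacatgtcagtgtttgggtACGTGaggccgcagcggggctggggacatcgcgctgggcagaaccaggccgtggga
Aldoc (chr11:78322823-78323122, plus strand): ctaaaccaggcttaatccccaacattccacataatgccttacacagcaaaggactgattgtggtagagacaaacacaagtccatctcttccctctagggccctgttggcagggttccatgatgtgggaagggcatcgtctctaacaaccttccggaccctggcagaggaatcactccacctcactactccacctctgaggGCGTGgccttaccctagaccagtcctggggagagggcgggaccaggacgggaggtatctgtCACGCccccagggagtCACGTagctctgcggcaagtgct
P4ha2 (chr11:54100674-54100973, plus strand): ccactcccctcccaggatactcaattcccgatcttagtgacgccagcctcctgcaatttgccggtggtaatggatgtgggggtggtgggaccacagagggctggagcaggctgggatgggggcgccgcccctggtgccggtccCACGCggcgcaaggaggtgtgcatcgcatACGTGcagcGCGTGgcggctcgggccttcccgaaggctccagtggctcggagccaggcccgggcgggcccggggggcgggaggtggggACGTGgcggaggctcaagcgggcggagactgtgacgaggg
Slc16a3 (chr11:120948817-120949116, plus strand): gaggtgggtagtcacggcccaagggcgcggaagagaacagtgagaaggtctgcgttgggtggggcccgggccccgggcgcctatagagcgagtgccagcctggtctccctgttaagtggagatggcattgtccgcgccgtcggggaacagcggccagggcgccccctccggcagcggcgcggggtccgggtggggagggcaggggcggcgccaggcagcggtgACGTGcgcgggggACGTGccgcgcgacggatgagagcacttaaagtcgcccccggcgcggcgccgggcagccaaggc
Egln3 (chr12:54203825-54204124, minus strand): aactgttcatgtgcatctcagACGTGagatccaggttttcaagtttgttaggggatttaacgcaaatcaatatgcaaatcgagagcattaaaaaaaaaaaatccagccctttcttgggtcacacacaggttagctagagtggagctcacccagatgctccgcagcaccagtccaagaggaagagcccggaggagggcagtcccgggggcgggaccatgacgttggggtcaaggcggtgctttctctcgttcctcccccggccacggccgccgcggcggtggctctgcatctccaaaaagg
Eno2 (chr6:124769624-124769923, minus strand): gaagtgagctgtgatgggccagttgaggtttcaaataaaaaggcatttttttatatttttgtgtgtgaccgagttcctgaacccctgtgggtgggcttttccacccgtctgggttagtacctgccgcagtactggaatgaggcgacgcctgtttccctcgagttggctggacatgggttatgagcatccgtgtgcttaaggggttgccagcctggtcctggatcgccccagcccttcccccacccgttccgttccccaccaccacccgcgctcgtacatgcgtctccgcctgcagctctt
Ldha (chr7:46845554-46845853, plus strand): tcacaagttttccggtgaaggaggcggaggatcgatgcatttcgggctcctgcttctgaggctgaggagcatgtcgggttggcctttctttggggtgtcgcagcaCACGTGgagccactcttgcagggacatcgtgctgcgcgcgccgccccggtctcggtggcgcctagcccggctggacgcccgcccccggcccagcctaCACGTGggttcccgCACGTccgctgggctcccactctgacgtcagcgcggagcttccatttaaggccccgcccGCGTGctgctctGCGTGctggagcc
P4ha2 held 4 separate stretches of the motif, Ankrd37 and Aldoc 3 each, Slc16a3 2 and Egln3 1, while Eno2 held 0 in this window. The Ldha window held 5 stretches, among them CACGTG in 2 places. Genes whose day 5 values lay below those of day 0 in both clones could hold the motif too: it stood in 3 of the 4 windows of Pfkm, in 1 of the 2 of Hk1 and in the only one of P4ha1, which held 3 stretches, while the window of Gpi1 held 0.

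The 6 arrays were of like quality, with 16739 to 18150 probes detected per array (37.0% to 40.1%) and a median deposited signal between 93.4 and 95.9. All 12 markers of pluripotent cells, Pou5f1, Nanog and Esrrb among them, were detected on 6 of 6 arrays, which matches the labelled cell type. Of 12 fibroblast and feeder cell markers, Col1a1, Col1a2, Col3a1, Postn, Lum and S100a4 were detected on 0 arrays. By any 1 probe, Acta2 was detected on at most 2 arrays, and Dcn, Pdgfra and Pdgfrb on at most 1. Dcn read 5.57 on day 5 of clone 7 and from 4.19 to 4.31 on the other arrays. The remaining 2, Thy1 and Fbn1, were detected often enough to be tested. Of 8 primitive endoderm markers 1 was tested, Gata6, a dim probe detected on 3 arrays. It read 4.46, 4.64 and 5.63 on days 0, 2 and 5 in clone 5 and 4.36, 4.45 and 5.85 in clone 7. Day 5 was higher by 1.33 than day 0 (limma, adjusted p = 0.0169) and by 1.19 than day 2 (adjusted p = 0.0450), so both passed.

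The main pattern in these genes was a gap between the clones at the start of the rescue whose median was near 0 on day 5. On day 0, 29 of the 31 genes read lower in clone 7 than in clone 5, against 50% of all genes, with a median difference of -0.58 on the log2 scale where that of all genes was 0.00. On day 2, 27 of 31 were lower in clone 7 (47.9% of all genes) with a median of -0.29. On day 5, 16 of 31 were lower (48.8% of all genes) and the median was -0.01. Single genes still differed then, from -0.60 to 0.92. Each of these is a difference of 1 array against 1, so no test applies to a day alone. In RNA from whole cultures, fewer cells that express a gene and less of its RNA per cell cannot be told apart.

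**Figure D1:**
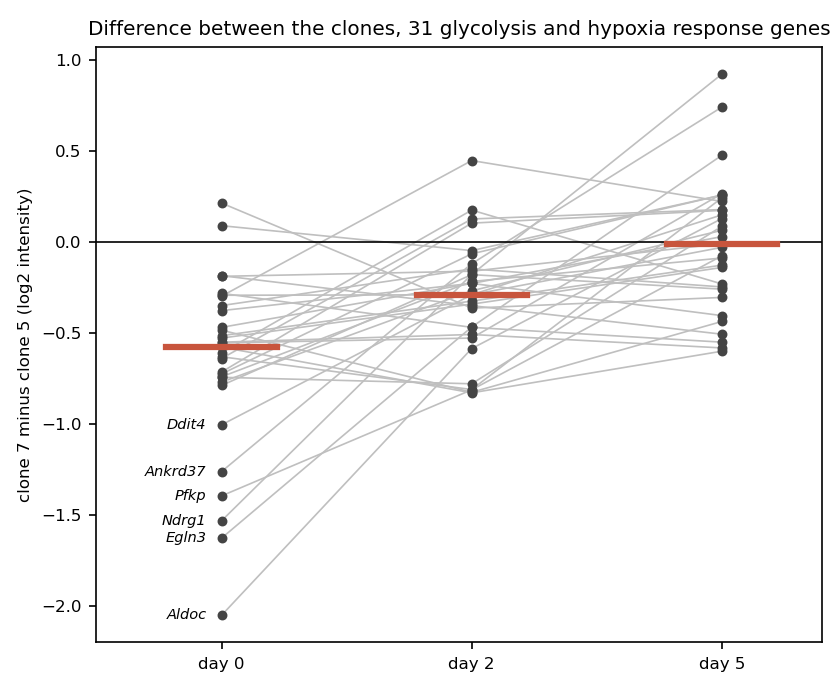
Difference between the clones on each day of the rescue (y axis, clone 7 minus clone 5, log2 intensity) for the 31 genes, 1 point per gene with a grey line joining its 3 days, and the median as a red bar. The medians are -0.58, -0.29 and -0.01, and the 6 genes named at day 0 were at least 2-fold lower in clone 7 on that day.

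Those 6 genes were Aldoc (-2.05), Egln3 (-1.63), Ndrg1 (-1.53), Pfkp (-1.40), Ankrd37 (-1.26) and Ddit4 (-1.01), while 1.26% of all genes lay that far below clone 5 on day 0. On days 2 and 5 no member was 2-fold lower or higher in clone 7, as 1.32% and 0.682% of all genes were on day 2 and 0.856% and 0.898% on day 5. The lowest of a gene's 6 arrays was day 0 of clone 7 for 15 of the 31 genes (48.4%, against 18.7% of all genes) and day 2 of clone 7 for another 10 (32.3%, against 18% of all). The highest array was day 0 of clone 5 for 13 genes (41.9%, against 16.2% of all), and day 0 or day 2 of clone 7 for 0 (17.1% and 21.9% of all). Slc2a3 and Eno3 were the exceptions on day 0, with clone 7 above clone 5 by 0.21 and 0.09.

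Taken over all 3 days, 29 of the 31 genes had a lower mean in clone 7 (47.8% of all genes did), with a median difference of -0.33, against 0.01 for all 12030 genes. In 9 genes all 3 arrays of clone 7 lay below all 3 of clone 5 (29.0%, against 4.95% of all genes). In 14 genes clone 7 was lower on every day (45.2%, against 15.6%). These counts use 1 probe per gene. Of the 9, the second probes of Gpi1, Pfkl, Pfkp and Hif1a overlapped between the clones, and that of Pkm2 did not. Of the 14, a further probe of Gpi1, Pfkl, Pfkm, Hif1a, P4ha1 and Mif was higher in clone 7 on some day. No member passed limma's test at an adjusted p of 0.05, and neither did any of the 12030 genes (0% called). Of the 31, 9 were lower and 0 higher at an unadjusted p under 0.05, where 6.28% of all genes were lower and 4.99% higher. The smallest adjusted p was that of P4ha1 (0.184), whose second probe did not share the direction. Without either array of day 0 the median gap was -0.16, with 23 of 31 genes below 0.

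**Figure D2:**
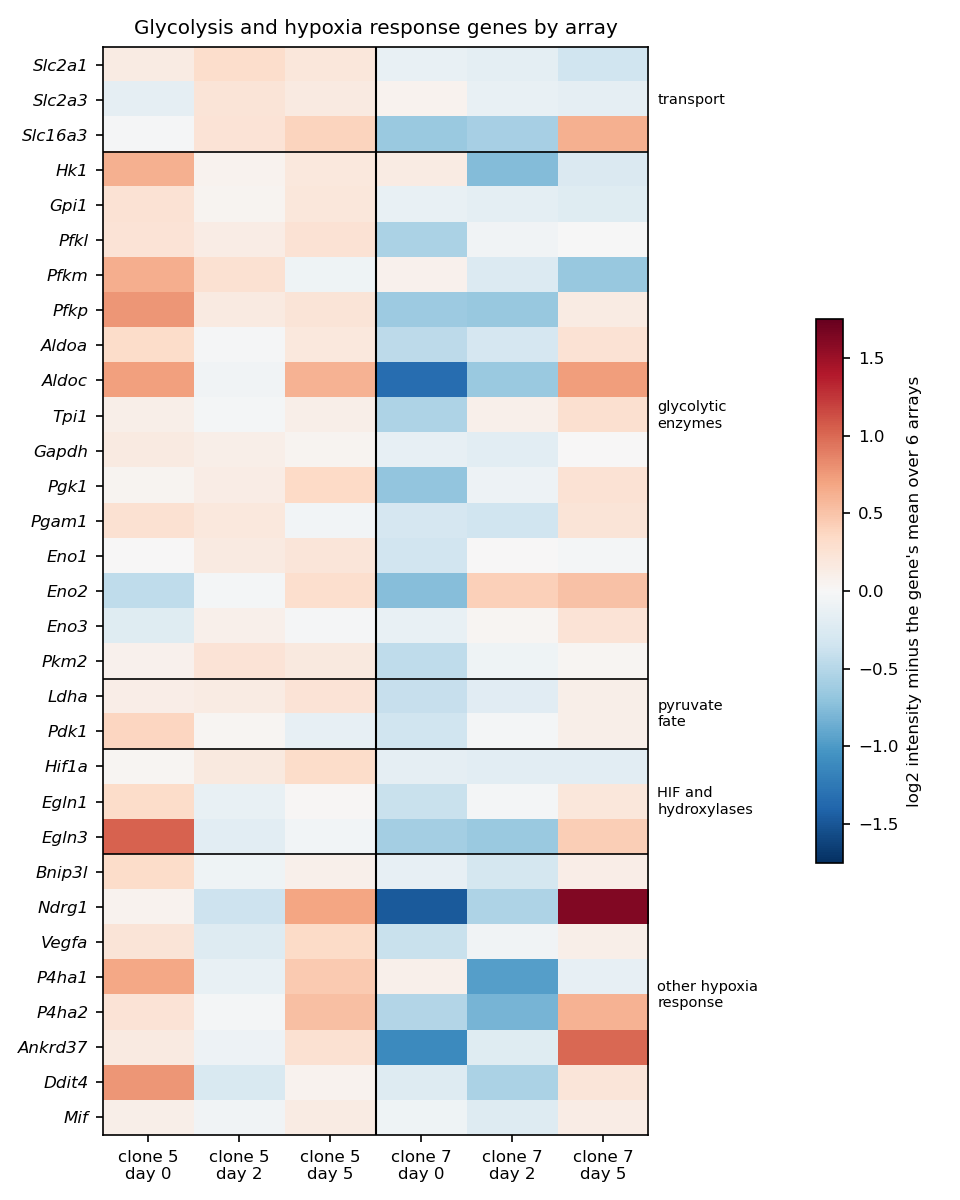
Values of the 31 genes (rows, grouped by role) on the 6 arrays (columns, clone 5 left and clone 7 right), as log2 intensity minus the gene's mean over the 6 arrays, from blue (below the mean) to red (above). Day 0 of clone 7 is the lowest array of 15 genes, and day 0 of clone 5 is the highest of 13.

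The transporters gave values that differed from gene to gene. Slc2a1 and Slc2a3 encode glucose carriers of the cell membrane and gave strong signals with little spread. Slc2a1 read 12.73, 12.89 and 12.78 on days 0, 2 and 5 in clone 5 and 12.45, 12.41 and 12.23 in clone 7, so clone 7 was lower on every day (mean difference -0.44 ± 0.14 SE, adjusted p = 0.317). Slc2a3 spanned 0.39 over the 6 arrays and was lowest on day 0 of clone 5. Slc16a3, whose product exports lactate from glycolytic cells, read 5.69, 5.95 and 6.10 in clone 5 and 5.06, 5.13 and 6.34 in clone 7. Both day 5 arrays lay above the other 4, and the mean of day 5 minus day 0 was 0.84 ± 0.27 (SE, n = 2 arrays per day, adjusted p = 0.127). By clone the difference was 0.41 in clone 5 and 1.28 in clone 7. Without the day 5 array of clone 5, where day 5 rests on clone 7 alone, it was 1.33.

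The enzymes are taken in the order of the pathway. Hk1 encodes a hexokinase, which traps glucose in the cell. Its values were 5.82, 5.26 and 5.37 in clone 5 and 5.33, 4.43 and 4.93 in clone 7, the array of day 2 in clone 7 being below detection. Day 2 was the lowest day in each clone, with a mean of day 2 minus day 0 of -0.73 ± 0.18 (adjusted p = 0.221). Gpi1, the isomerase of the next step, spanned 0.46 over the arrays and was lower in clone 7 on every day by the probe used. Its dimmer second probe, detected on all 6 arrays, read 5.15, 5.46 and 5.27 in clone 5 and 5.34, 5.36 and 5.53 in clone 7, so that clone 7 was the higher on days 0 and 5.

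Pfkl, Pfkm and Pfkp encode the liver, muscle and platelet forms of phosphofructokinase, the main control point of the pathway, and the 3 forms differed. Pfkm read 10.07, 9.70 and 9.36 on days 0, 2 and 5 in clone 5 and 9.52, 9.19 and 8.78 in clone 7. By the probe used, the values were lower on each later day in both clones. Clone 7 minus clone 5 was -0.55, -0.51 and -0.58 on the 3 days. Day 5 minus day 0 was -0.72 ± 0.16, just short of the threshold (adjusted p = 0.058), and the other detected Pfkm probes gave -0.73 and -0.56. Their differences between the clones were -0.73, -0.37 and -0.24 for the brighter and -0.44, -0.33 and 0.21 for the dimmer. In clone 7 the dimmer one read 5.26 on day 2 and 5.31 on day 5. Pfkp read 10.79, 10.17 and 10.24 in clone 5 and 9.39, 9.36 and 10.16 in clone 7, so that the clones were far apart on day 0 and nearly equal on day 5. Its second probe read 8.96, 8.18 and 8.55 in clone 5 and 7.66, 7.79 and 8.26 in clone 7. Pfkl was lowest on day 0 of clone 7 and highest on day 5 of clone 5, a span of 0.81. By its second probe, detected on 4 arrays, clone 7 minus clone 5 was -0.86, 0.66 and 0.25 on the 3 days.

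Aldolase is the enzyme that splits the sugar phosphate into trioses, and of its forms Aldoc varied far more than Aldoa. Aldoc, the form known from brain, read 9.20, 8.41 and 9.08 in clone 5 and 7.15, 7.82 and 9.21 in clone 7. Clone 7 started far below clone 5 and ended level with it, with a difference between day 5 and day 0 of 2.06 in clone 7 and -0.12 in clone 5. The mean of the pair was 0.97 ± 0.44 (adjusted p = 0.264). Without the day 0 array of clone 5, where day 0 rests on clone 7 alone, it was 1.88. Aldoa, the form of most tissues, had the same order on day 0 (12.30 in clone 5 and 11.52 in clone 7) and equal readings on day 5 (12.16 and 12.23).

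The enzymes from Tpi1 to Pkm2 carry the trioses to pyruvate, and here day 0 of clone 7 was the low array for Tpi1, Pgk1, Eno1, Eno2 and Pkm2 by the probes used. Pgk1, a phosphoglycerate kinase that makes ATP, read 11.83, 11.92 and 12.13 in clone 5 and 11.09, 11.70 and 12.04 in clone 7, and day 5 minus day 0 was 0.63 ± 0.21 (adjusted p = 0.144). Tpi1, the triose isomerase, differed by 0.83 between day 5 and day 0 in clone 7 and by 0.01 in clone 5. Gapdh, often taken as a reference gene, spanned 0.34, the smallest span of the 31 genes, and Pgam1, a mutase, spanned 0.61. Their lowest arrays were both day 2 of clone 7.

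Eno2, the enolase known from neurons, was the enzyme gene nearest to the threshold in the upward direction. It read 6.49, 6.91 and 7.22 in clone 5 and 6.19, 7.35 and 7.44 in clone 7. Each array of days 2 and 5 lay above both arrays of day 0. Day 5 minus day 0 was 0.99 ± 0.22 (1.99-fold, adjusted p = 0.053) and day 2 minus day 0 was 0.78 ± 0.22 (adjusted p = 0.247). In the authors' deposited table, which lists 698 probes changed on day 5, Eno2 is the 1 member present, with a log2 fold change of 1.17 and an unadjusted p of 0.036 there. Eno1, the common enolase, and Eno3, the muscle form, spanned 0.55 and 0.46, and Pkm2 (now Pkm), a pyruvate kinase gene, spanned 0.69.

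At the fate of pyruvate, Ldha, which makes lactate, read 13.36, 13.39 and 13.48 in clone 5 and 12.84, 13.04 and 13.34 in clone 7. Its gap between the clones was -0.53 on day 0 and -0.14 on day 5. Pdk1, a kinase that holds back the entry of pyruvate into the mitochondria, read 9.93, 9.59 and 9.40 in clone 5 and 9.21, 9.52 and 9.66 in clone 7. It was thus highest on day 0 in clone 5 and lowest on day 0 in clone 7, and the mean of day 5 minus day 0 was -0.04 ± 0.25.

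**Figure D3:**
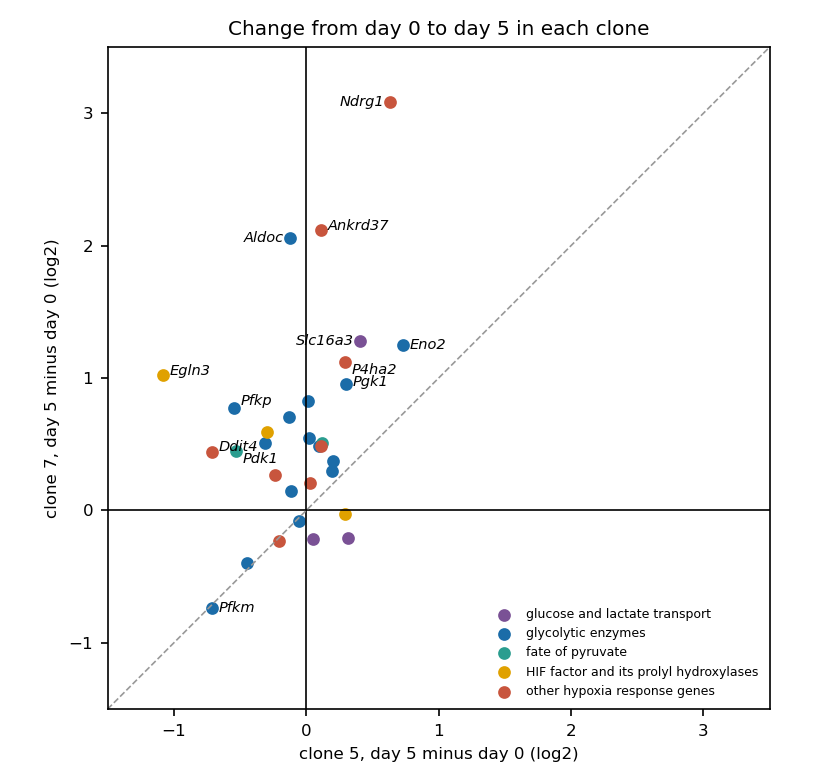
Day 5 minus day 0 in clone 5 (x axis) and in clone 7 (y axis), log2 intensity, 1 point per gene, coloured by role, with the dashed line marking equal values. Most points lie above the line, 24 of 31 are above 0 in clone 7 and 17 in clone 5, and Ndrg1, Aldoc, Egln3 and Ankrd37 stand farthest from it.

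Of the oxygen sensing genes themselves, Hif1a, which encodes a HIF alpha subunit, gave different patterns by its 2 detected probes, both dim. The one used read 5.76, 5.90 and 6.05 in clone 5 and 5.57, 5.55 and 5.54 in clone 7, lower in clone 7 on every day and with a span of 0.51. The other, detected on 5 arrays, read 5.51, 4.95 and 5.50 in clone 5 and 4.49, 4.81 and 5.92 in clone 7, a span of 1.43 with clone 7 the higher on day 5. Egln1 and Egln3 encode HIF prolyl hydroxylases, and Egln3 is itself a known HIF target. Egln3 read 7.98, 6.76 and 6.90 in clone 5 and 6.36, 6.29 and 7.38 in clone 7. Day 0 of clone 5 was the highest of its arrays, so that day 5 minus day 0 was -1.08 in clone 5 and 1.02 in clone 7, and the mean of the pair was -0.03 ± 0.42. By the probe used, Egln1 gave -0.30 and 0.59 for these differences, and by its second probe, detected on 4 arrays, 0.37 and 0.62, so the opposite signs were not seen with both.

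The other hypoxia response genes held the widest ranges. Ndrg1, a stress gene strongly induced by low oxygen, read 7.54, 7.12 and 8.17 in clone 5 and 6.01, 6.94 and 9.09 in clone 7. The day 5 arrays were the highest in both clones, and the span of 3.09 was the largest of the 31 genes. Day 5 minus day 0 was 1.86 ± 0.49 (3.62-fold), which did not pass (adjusted p = 0.0854), and day 5 minus day 2 was 1.61 ± 0.49 (adjusted p = 0.158). The second Ndrg1 probe gave 1.68 and 1.41 for these differences, and with every probe as its own feature it passed the former (adjusted p = 0.0424). By the probe used, day 5 minus day 0 was 0.63 in clone 5 and 3.09 in clone 7. Without the day 0 array of clone 5 the mean difference was 2.81, and without the day 5 array of clone 5 it was 2.75. In each of these fits a day rests on clone 7 alone.

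Ankrd37, an ankyrin repeat gene known as a HIF target, read 9.06, 8.82 and 9.17 in clone 5 and 7.80, 8.70 and 9.91 in clone 7. Clone 5 stayed within 0.36 while clone 7 differed by 2.12 between day 0 and day 5, and the mean difference was 1.11 ± 0.41 (adjusted p = 0.174). Without the day 0 array of clone 5, where day 0 rests on clone 7 alone, it was 1.90. Vegfa, the vascular growth factor, Bnip3l, a mitophagy receptor, and Mif, a cytokine, had spans of 0.72, 0.63 and 0.37, each with clone 7 below clone 5 on day 0.

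P4ha1 and P4ha2 encode the catalytic subunits of collagen prolyl hydroxylase, and both were low on day 2. P4ha1 read 7.21, 6.41 and 7.01 in clone 5 and 6.63, 5.58 and 6.41 in clone 7. Day 2 was the lowest day in each clone, clone 7 was lower than clone 5 on every day, and neither difference passed (day 2 minus day 0, -0.93 ± 0.17, adjusted p = 0.179, and day 5 minus day 2, 0.71 ± 0.17, adjusted p = 0.104). The second P4ha1 probe, detected on all 6 arrays, read 5.26, 4.81 and 5.24 in clone 5 and 5.46, 4.72 and 5.34 in clone 7. Day 2 was again the lowest day in each clone, but clone 7 was the higher on days 0 and 5, with a difference between the clones of 0.07. P4ha2 read 7.61, 7.35 and 7.90 in clone 5 and 6.87, 6.56 and 7.99 in clone 7. The day 5 arrays were again above the other 4, and day 5 minus day 2 was 0.99 ± 0.24 (adjusted p = 0.108). Ddit4, an inhibitor of mTORC1 signalling that low oxygen and stress induce, read 10.54, 9.49 and 9.82 in clone 5 and 9.53, 9.20 and 9.97 in clone 7, with day 0 of clone 5 above all other arrays.

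**Figure D4:**
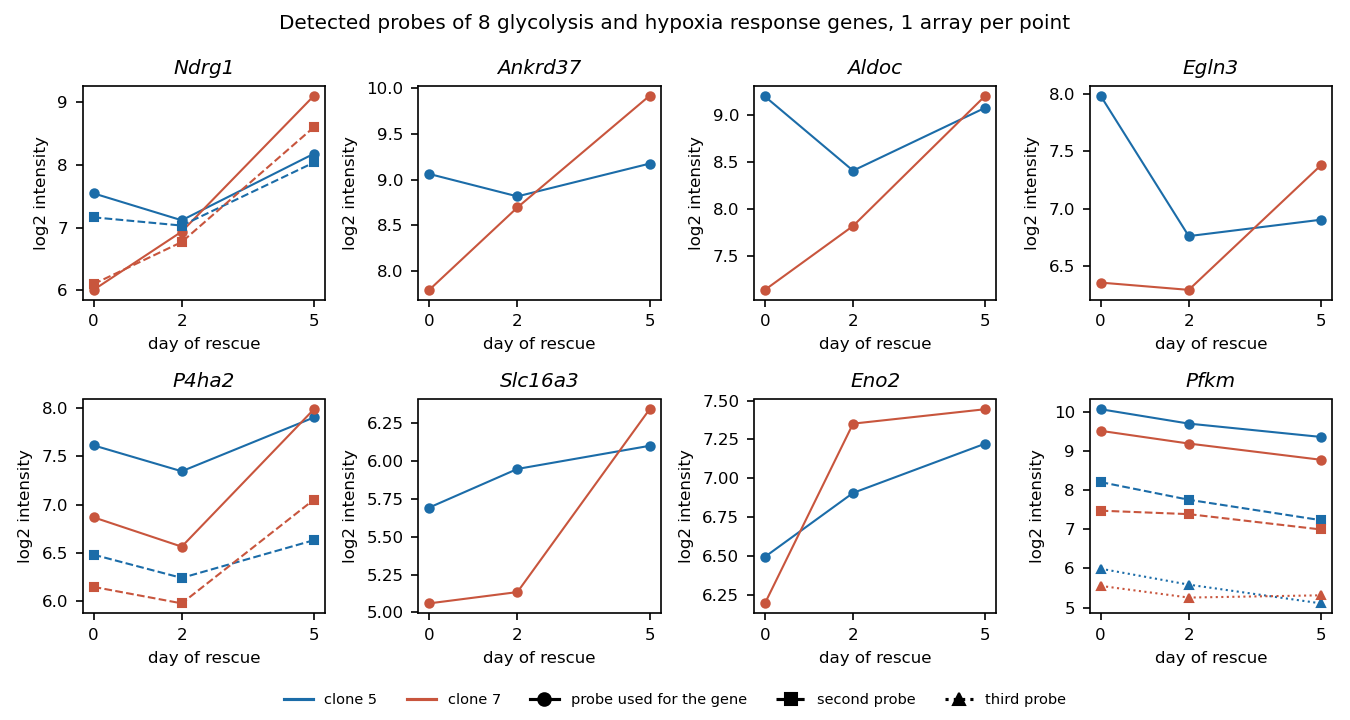
Log2 intensity (y axis) against day of rescue (x axis) for every detected probe of 8 genes, clone 5 in blue and clone 7 in red, 1 array per point, with a further probe of the same gene as a dashed or dotted line. The probes of a gene lie at different levels and are compared only in shape: both Ndrg1 probes are highest on day 5 of clone 7, and the main Pfkm probe is lower on each later day in both clones.

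Set over all members, the day comparisons with limma gave no call. For day 5 against day 0, 23 of 31 genes were above 0 with a median of 0.15 (50.1% of all genes were above 0, median 0.00). None had an adjusted p under 0.05, where 4.26% of all genes did, and 6 were higher and 1 lower at an unadjusted p under 0.05, where 11.7% and 9.73% of all genes were. In 9 genes both arrays of day 5 lay above both of day 0 and in 1 below, against 25.1% and 23.6% of all genes. In the fits without 1 array of day 0 or day 5, that day rests on 1 clone. Without day 0 of clone 5 the median was 0.44, and without day 5 of clone 5 it was 0.40, with 25 members above 0 in both. Without day 0 of clone 7 it was 0.02, and without day 5 of clone 7 it was 0.14, with 18 above 0 in both.

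For day 2 against day 0 the members had a median of -0.05, with 14 above 0 and 17 below (51.8% of all genes were above), 0 called (0% of all genes) and 1 higher and 3 lower at an unadjusted p under 0.05 (6.81% and 6.74% of all). Without the day 0 array of clone 7 the median was -0.28 with 8 members above 0, and without the day 0 array of clone 5 it was 0.23 with 20 above 0. For day 5 against day 2, 27 of 31 were above 0 with a median of 0.21 (47.3% of all genes, median -0.02). In 14 genes both arrays of day 5 lay above both of day 2 (45.2%, against 21.7% of all genes), while 0 members passed (0.79% of all genes) and 4 were higher and 0 lower at an unadjusted p under 0.05 (9.83% and 8.02% of all). Without the day 5 array of clone 5, 4 members passed (Slc16a3, Ndrg1, P4ha2 and Ankrd37), where 4.29% of all genes did, and the median was 0.39. With the day 0 array of either clone left out, 1 member, Ndrg1, passed (adjusted p = 0.0356), where 2.73% of all genes did. Without the day 5 array of clone 7, 0 members and 0.341% of all genes passed, and the median was 0.07 with 19 members above 0.

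Taken by clone, day 5 minus day 0 had a median of 0.49 in clone 7, with 24 genes above 0 (50.6% of all genes were) and 7 at least 2-fold higher (22.6% of the 31, against 4.33% of all genes). These 7 were Ndrg1 (3.09), Ankrd37 (2.12), Aldoc (2.06), Slc16a3 (1.28), Eno2 (1.25), P4ha2 (1.12) and Egln3 (1.02). In clone 5 the median was 0.02, 17 genes were above 0 (50.3% of all), 0 were 2-fold higher (2.38% of all), and 1, Egln3, was 2-fold lower (2.15% of all). The difference between the clones in this change is the same quantity as the fading of their gap, and it has no replicate and was not tested. Genes with the same sign in both clones were 14 higher and 4 lower (45.2% and 12.9%, against 30.8% and 29.8% of all genes). The 4 lower were Pfkm, Hk1, Gpi1 and P4ha1, of which Gpi1 was higher in both clones by its second probe (0.11 and 0.19). Of the 14 higher, some were lower in clone 5 by a further probe. These were Pfkl (-0.14), Tpi1 (-0.01 and -0.67), Pgk1 (-0.12), Pkm2 (-0.02) and Mif (-0.08). The second probes of Ndrg1 (0.87), P4ha2 (0.15) and Vegfa (0.06) were higher in clone 5 too.

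The additional probes gave a check within the arrays. Of the 31 genes, 15 had more than 1 detected probe, which gave 17 probes not used above. On day 0, 15 of these 17 were lower in clone 7 with a median of -0.65, on day 2 it was 15 with a median of -0.26, and on day 5 it was 6 with a median of 0.10. In clone 7, 14 of 17 were higher on day 5 than on day 0, and in clone 5, 6 were. Probes of the same gene share their RNA sample and are not further replicates.

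The 2 fibroblast markers tested, Thy1 and Fbn1, differed in their order of clones on day 0. Thy1, a surface protein of fibroblasts and other cells, read 8.77, 6.87 and 7.38 in clone 5 and 5.83, 5.09 and 7.61 in clone 7. Clone 7 was thus the lower on day 0, as in most members. Fbn1, detected on 4 arrays, read 4.44, 4.65 and 4.79 in clone 5 and 4.69, 4.66 and 4.99 in clone 7, which was the higher on each day. The summed normalised intensity of the 2 markers was 457, 142 and 194 in clone 5 and 82.7, 59.3 and 227 in clone 7. Thy1, the brighter, made up most of it. The collagen genes Col1a1, Col1a2 and Col3a1 were detected on no array. The part of such cells in the gap was not tested. The pluripotency markers had a median difference between the clones of -0.06 on day 0, with 8 of 12 lower in clone 7. Of these 12, Fbxo15 differed most on day 0, at 8.81 in clone 5 and 10.89 in clone 7, and read 11.25 and 10.93 on day 5.

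Genes of the neighbouring pathways were taken from lists drawn up by function. Of 30 other HIF target genes, 21 were tested, and 19 of them were above 0 for day 5 against day 0 with a median of 0.41, where 50.1% of all genes were above 0. Of the 21, 2 passed, both upward, where 4.26% of all genes passed. Car12, a carbonic anhydrase of the cell surface, read 4.85, 5.10 and 6.04 in clone 5 and 4.44, 4.37 and 5.66 in clone 7, a rise of 1.20 ± 0.18 (adjusted p = 0.0203, detected on 4 of 6 arrays), and it also passed against day 2 (1.12 ± 0.18, adjusted p = 0.0481, where 0.79% of all genes passed). Edn1, the vasoconstrictor endothelin, read 4.27, 5.73 and 6.28 in clone 5 and 5.02, 4.98 and 6.07 in clone 7, a rise of 1.53 ± 0.33 (adjusted p = 0.0485, detected on 5 arrays). For both, day 5 lay above day 0 in each clone. Without the day 0 array of clone 5 neither passed (adjusted p = 0.0551 and 0.105). Car12 also missed the threshold without day 0 or day 5 of clone 7 (0.0607 and 0.0581), and Edn1 without day 5 of clone 5 or of clone 7 (0.0872 and 0.0867). Against day 2, Car12 missed it without day 2 of clone 5, day 2 of clone 7 or day 5 of clone 7 (0.150, 0.619 and 0.146). Between the clones on day 0 these target genes had a median of -0.15, with 13 of 21 lower in clone 7, and their day 5 minus day 0 was 0.69 in clone 7 and 0.31 in clone 5.

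Of 20 other glycolysis and gluconeogenesis genes 10 were tested, and 1 passed for day 5 against day 0 (4.26% of all genes did). Fbp2, a fructose bisphosphatase that runs against phosphofructokinase, read 5.50, 6.23 and 7.44 in clone 5 and 6.00, 5.78 and 6.98 in clone 7, a rise of 1.46 ± 0.26 on day 5 against day 0 (adjusted p = 0.03). Without the day 0 array of clone 5 its adjusted p was 0.0640, and without the day 5 array of that clone 0.0625. Ldhc, the lactate dehydrogenase known from testis, had a difference of 1.34 ± 0.29 (adjusted p = 0.0511). Of these 10 genes 9 had a lower mean in clone 7 (47.8% of all genes did), with a median of -0.16, Pgm2 being lowest at -0.84 ± 0.23 (adjusted p = 0.245).

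The HIF machinery and the mitochondrial steps had medians nearer 0 on day 0 than the members, though most of their genes were also lower in clone 7. For 12 of 14 other HIF pathway components tested, Arnt and Vhl among them, the median of clone 7 minus clone 5 on day 0 was -0.05, with 8 of 12 lower. For 14 of 16 citric acid cycle genes it was -0.11, with 11 of 14 lower, where 50% of all genes were. For 9 of 12 genes of pyruvate entry into mitochondria it was -0.22, with 7 of 9 lower, farther from 0 than the -0.15 of the other HIF target genes. In none of these lists did a gene pass a comparison. Of 8 pentose phosphate pathway genes 7 were tested, and these 7 lay below 0 for day 5 against day 0, with a median of -0.35 and 0 passing (lowest adjusted p 0.16). Their gap between the clones on day 0 was -0.02, and the medians for day 5 minus day 0 were -0.30 in clone 5 and -0.37 in clone 7.

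**Figure D5:**
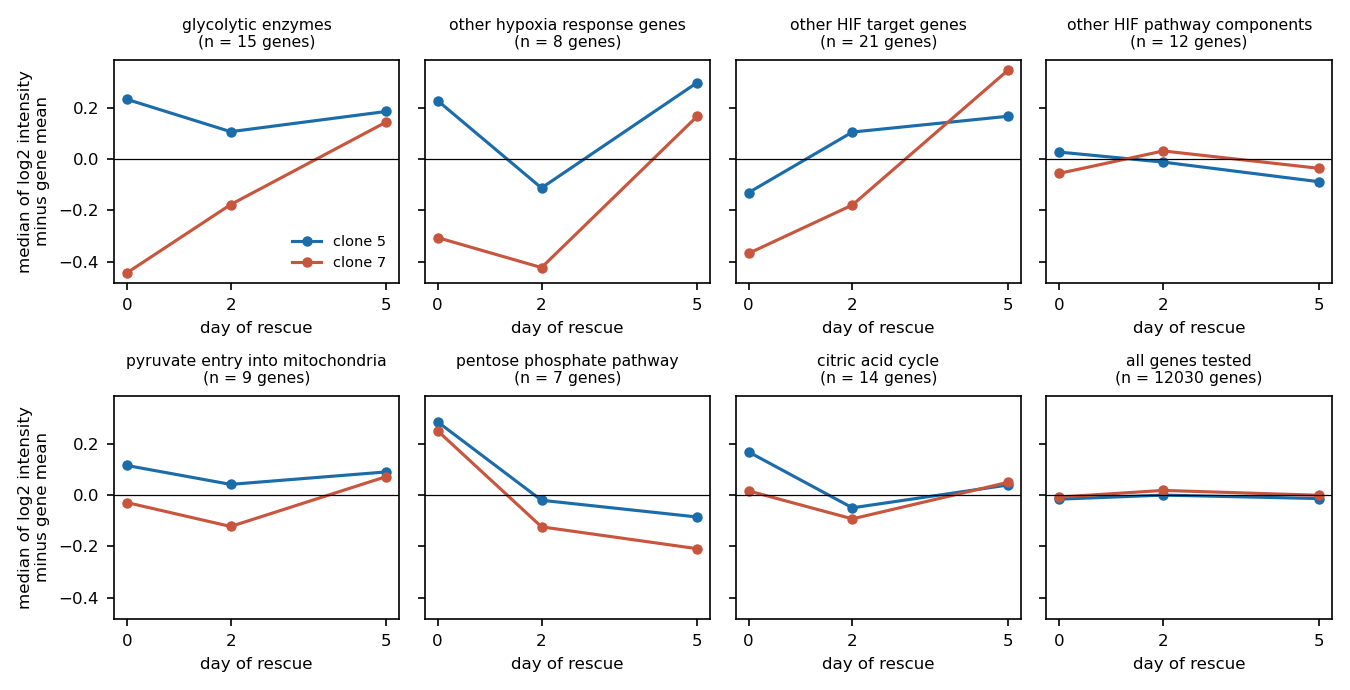
Median over the genes of a list of log2 intensity minus each gene's mean (y axis) by day of rescue (x axis), clone 5 in blue and clone 7 in red. The glycolytic enzymes are lowest on day 0 of clone 7, at -0.44 against 0.24 in clone 5, the pentose phosphate genes are lower after day 0 in both clones, and all 12030 genes lie within 0.02 of 0.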

How the data were processed

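The arrays measured RNA of 6 cultures. Per the file headers, the deposited table of all probes gives a bead-averaged intensity without normalisation or background correction, and a detection p-value. The authors also deposited log2 values normalised between arrays, and a fold change table with log2 differences and unadjusted p-values. The programs behind these values are not given in the sources used here. Symbols were matched to RefSeq names of GRCm38.p6 (35777 of 45281 probes, 8037 of them by synonym). A detected probe named Pk3, a synonym of more than 1 gene, was left out.

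In limma 3.58.1 (R 4.3.3), intensities were corrected for background by normexp with detection p-values (offset 16), then quantile normalised and log2 transformed. A probe was kept if both arrays of some day detected it at p under 0.05, and each gene was read by its probe of highest mean. A model with day and clone was fitted (lmFit, eBayes, 5.24 prior degrees of freedom), with Benjamini-Hochberg adjustment over all genes and a threshold of 0.05. SE are those of the fit. Clone is the replicate block because each number is the same cell line on every day. Across genes the clone differences correlated at 0.36 between days 0 and 2, -0.07 between days 0 and 5 and 0.34 between days 2 and 5.

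The members and lists were chosen with earlier results of these data known, so no p-value was adjusted over a list. Each member is named, and all 6 values are given at least for the 5 members with the largest difference in each comparison. Of other lists, genes that passed and up to 3 with the largest difference may be named, and Thy1 and Gata6 are named as tested cell type markers. Alternatives were the authors' series values, median scaling, an offset of 50, no background correction, no block, other detection filters, other probe rules, trended and robust shrinkage and each array left out. The number of arrays limits the precision.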

Additional observations from a re-analysis of the deposited data

Results flagged for a closer look

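In the differences between days listed here, the 2 clones moved in opposite directions, each by more than the SE of the fit. The share of all genes that did so was not counted, so no count of members is given. The values below are the change in clone 7 minus that in clone 5 on the log2 scale, and none of them was tested, since there is 1 array per clone and day. From day 0 to day 5 the value was 2.10 for Egln3, the oxygen-sensing hydroxylase, 1.32 for Pfkp, 1.15 for Ddit4 and 0.98 for Pdk1. It was 0.89 for Egln1, 0.82 for Pgam1 and 0.50 for Bnip3l. Slc2a3, the glucose carrier, ran the other way at -0.52, with a change of 0.31 in clone 5 and -0.21 in clone 7. The second probes of Egln1 (0.37 in clone 5 and 0.62 in clone 7) and Pgam1 (0.03 and 0.27) were higher on day 5 in both clones. That of Pfkp (-0.41 and 0.60) again gave opposite signs. From day 0 to day 2 the value was 1.47 for Aldoc, 0.82 for Egln1, 0.78 for Vegfa and 0.66 for Pdk1. Both sets share the day 0 arrays, and all values but that of Slc2a3 are above 0. Each value is also the later gap between the clones minus that on day 0, when 29 of the 31 genes were lower in clone 7.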

How the results depend on the processing

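No member passed any comparison as reported. For day 5 against day 0 the count of members called was 1 without background correction and with an offset of 50 (Pfkm), 1 with median scaling (Eno2), 1 with every probe as its own feature (Ndrg1) and 2 with trended and robust shrinkage (Pfkm and Eno2). With 1 array left out it ranged from 0 to 5 for day 5 against day 0 and from 0 to 4 for day 5 against day 2. The median of the members ranged over these left-out arrays from -0.28 to 0.23 for day 2 against day 0 and from 0.072 to 0.39 for day 5 against day 2. A day left with 1 array is then assumed to vary like the others. Without the replicate block, 0 members passed in each comparison, and of all genes 208 passed for day 5 against day 0 and 13 for day 5 against day 2, where 512 and 95 did with it. With 1 array left out, 138 to 672 and 0 to 516 of all genes passed in these comparisons, the 0 without day 2 of clone 7. With genes as features, the alternatives other than left-out arrays called 0 to 663 of all genes for day 5 against day 0 and 0 to 240 for day 5 against day 2. The pairing of clones changed no call of a member. The calls of Car12, Edn1 and Fbp2 for day 5 against day 0 were lost under several alternatives, with an adjusted p of 0.183 for Fbp2 and 0.253 for Edn1 without a detection filter and 0.181 for Car12 with the series values. Of 1852 values of single members under these alternatives, 1731 kept their sign and did not pass, 20 kept it and passed, and 101 changed sign. These 101 came from differences that passed in neither fit, 83 of them with 1 array left out, and were 26 for day 5 against day 0, 38 for day 2 against day 0, 23 for day 5 against day 2 and 14 between the clones. The day 0 gap between clones had a median from -0.67 to -0.50 under the other ways of making the values. Median scaling moved the median of all genes by -0.13 for clone 7 minus clone 5 on day 5 and by 0.10 for day 5 minus day 0 in clone 5, and relative to all genes the members then had 0.04 and -0.14. Dim probes, such as those of Hk1, Egln1 and Car12, lie close to background, which limits their changes.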
